A study of Canis lupus familiaris and Dasypus novemcinctus and Ornithorhynchus anatinus with 3 samples.

Results

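The 7 genes described here form the core of the Indian hedgehog pathway, taken by their upper-case symbols from 3 gene tables of the endometrium, the lining of the uterus, in pregnancy. IHH, PTCH1, SMO, GLI1, GLI2, GLI3 and HHIP were all listed in dog, against 19290 genes listed in all. In armadillo 6 of the 7 were listed among 12335 genes and IHH was not, and in platypus 6 of the 7 were listed among 18481 genes and GLI1 was not. The groups were pregnant endometrium of dog and of armadillo, which are placental mammals (eutherians), and of platypus, an egg-laying mammal. Each species had 1 library of messenger RNA, so no difference has a replicate check, no p-value was computed, and every interval covers counting error only. The labels state neither how far pregnancy had gone nor how many animals were sampled. In the dog table the 7 genes carry the identifiers ENSCAFG00000015019 (IHH), ENSCAFG00000001246 (PTCH1), ENSCAFG00000001531 (SMO), ENSCAFG00000000223 (GLI1), ENSCAFG00000004821 (GLI2), ENSCAFG00000003535 (GLI3) and ENSCAFG00000007557 (HHIP).

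Hedgehog proteins are secreted signals that act on neighbouring cells. PTCH1 is their receptor and holds the membrane protein SMO inactive until ligand binds. SMO then signals through the primary cilium to the GLI transcription factors, of which GLI2 acts mainly as an activator and GLI3 mainly as a repressor. PTCH1, GLI1 and the ligand-binding inhibitor HHIP are commonly induced by the pathway in mouse and human cells. In mouse uterus, progesterone induces IHH in the epithelium, and the signal is received in the stroma.

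Summed over genes, the dog library held 13625465 reads, that of armadillo 13218476 and that of platypus 2243556. Each level is given in CPM, the usual depth-scaled read count, with the reads of all listed genes of a library as its depth, so that 1 read equals 0.0734 CPM in dog and 0.446 CPM in platypus. Where a gene was at 0, its level may be as high as 3 reads would give, 0.220 CPM in dog and 1.34 CPM in platypus. Genes at 0 do not appear in the armadillo table, so a gene missing from it is given no level. CPM is not corrected for gene length, so each gene is compared between libraries only, and a ratio can also hold a difference in length between the species' gene models. In all, 21.8% of dog genes and 42.4% of platypus genes were listed at 0.

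The cell types of the samples were checked by marker lists, each summed over the markers found in all 3 tables by symbol or by an older or protein entry name. The 5 epithelial markers so found summed to 2578 CPM for dog, 596 CPM for armadillo and 33.9 CPM for platypus. KRT7 made up most of the sums of dog and armadillo, at 2185 CPM in dog, 538 CPM in armadillo and 2.23 CPM (5 reads) in platypus, where ELF3 was listed at 0. ESRP1, at 58.7 CPM in dog, 7.19 CPM in armadillo and 23.2 CPM in platypus, and GRHL2, at 86.6, 6.05 and 8.02 CPM, did not follow the order of the sum. The 7 stromal markers summed to 3959 CPM for dog, 17064 CPM for armadillo and 8229 CPM for platypus, and 4 smooth muscle markers to 181, 16739 and 1453 CPM in that order of libraries. The 6 motile cilia markers summed to 0.367 CPM for dog, 13.6 CPM for armadillo and 144 CPM for platypus. Of the 8 endothelial markers, 7 were listed in platypus and 4 of these, VWF, TEK, KDR and ESAM, were at 0. The other 3 had reads there, with 45 for CDH5, 6 for FLT1 and 1 for TIE1. CDH5 stood at 20.1 CPM in platypus and 31.0 CPM in dog. In bulk tissue, fewer cells of a type and less RNA per cell cannot be told apart.

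The ligand gene IHH was near the detection limit wherever it was listed. It had 14 reads in dog, or 1.03 CPM (95% interval 0.562 to 1.72), and 1 read in platypus, or 0.446 CPM (95% interval 0.0113 to 2.48). The dog to platypus ratio of 2.31 had a 95% interval of 0.351 to 97.5 and did not separate these libraries. Per read of SMO, IHH was 13.0-fold (95% interval 1.96 to 553) higher in dog than in platypus, on 14 reads in dog and 1 in platypus. SMO itself was 5.66-fold lower in dog, so this ratio also holds the difference in SMO and does not show that IHH itself differed. At the platypus depth, the dog level of IHH would give 2.31 reads. The summed epithelial markers, from the cells that make IHH in mouse uterus, were 76.1-fold higher in dog than in platypus, with KRT7 980-fold, GRHL2 10.8-fold and ESRP1 2.53-fold higher. Their part in the levels of IHH was not tested.

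The receptor gene PTCH1 was highest in dog and had no reads in platypus. It had 2706 reads in dog, or 199 CPM (95% interval 191 to 206), 227 reads in armadillo, or 17.2 CPM (95% interval 15.01 to 19.6), and was listed at 0 in platypus. The order was dog, armadillo, platypus, and the intervals of the 3 levels did not overlap. By CPM, PTCH1 was 11.6-fold (95% interval 10.1 to 13.3) higher in dog than in armadillo. With platypus set to 3 reads, it was 149-fold higher in dog (lower 95% limit 121) and 12.8-fold higher in armadillo (lower 95% limit 10.4) than in platypus. A level equal to that of dog would give 446 reads at the platypus depth, and one equal to that of armadillo 38.5 reads. Zeros were not rare at these levels. Of 1283 other genes with a dog level within 2-fold of that of PTCH1, 189 (14.7%) were listed at 0 in platypus, and of 2150 such genes for armadillo, 507 (23.6%) were.

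SMO, which carries the signal across the membrane, ran in the opposite order. It stood at 33.2 CPM (452 reads; 95% interval 30.2 to 36.4) in dog, 68.3 CPM (903 reads; 95% interval 63.9 to 72.9) in armadillo and 188 CPM (421 reads; 95% interval 170 to 206) in platypus. Each of these intervals lay apart from the others. SMO was 2.06-fold (95% interval 1.84 to 2.31) lower in dog than in armadillo, 5.66-fold (95% interval 4.94 to 6.47) lower in dog than in platypus and 2.75-fold (95% interval 2.44 to 3.09) lower in armadillo than in platypus.

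**Figure D1:**
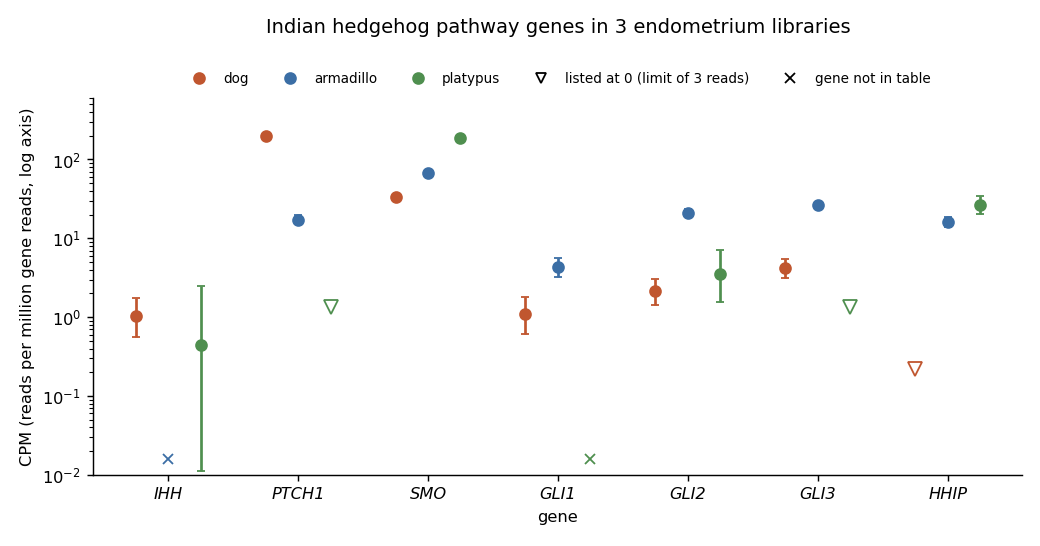
Levels of the 7 pathway genes in CPM, on a log axis, in the dog, armadillo and platypus libraries, with exact Poisson 95% intervals, 1 library per species. Open triangles mark genes listed at 0, drawn at the level of 3 reads, and crosses at the foot of the plot mark genes not in a table. PTCH1 falls in the order dog (199 CPM), armadillo (17.2 CPM), platypus (0), while SMO rises in that order.

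The GLI transcription factor genes were highest in armadillo among the libraries that list them. GLI2 had 29 reads in dog (2.13 CPM, 95% interval 1.43 to 3.06), 277 in armadillo (21.0 CPM, 95% interval 18.6 to 23.6) and 8 in platypus (3.57 CPM, 95% interval 1.54 to 7.03). It was 9.85-fold (95% interval 6.70 to 14.98) lower in dog than in armadillo and 5.88-fold (95% interval 2.94 to 13.7) higher in armadillo than in platypus. By CPM, dog and platypus did not differ beyond counting error, with a ratio of 0.597 (95% interval 0.266 to 1.51).

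GLI3 had 57 reads in dog (4.18 CPM, 95% interval 3.17 to 5.42) and 346 in armadillo (26.2 CPM, 95% interval 23.5 to 29.1), and was listed at 0 in platypus. It was 6.26-fold (95% interval 4.72 to 8.43) lower in dog than in armadillo. With platypus set to 3 reads, it was 19.6-fold higher in armadillo (lower 95% limit 15.8) and 3.13-fold higher in dog (lower 95% limit 2.46) than in platypus. Of 2319 other genes within 2-fold of the armadillo level of GLI3, 481 (20.7%) were also listed at 0 in platypus. GLI1, which is itself a target of the pathway, had 15 reads in dog (1.10 CPM, 95% interval 0.616 to 1.82) and 57 in armadillo (4.31 CPM, 95% interval 3.27 to 5.59). It was 3.92-fold (95% interval 2.19 to 7.45) lower in dog than in armadillo.

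HHIP, whose product binds hedgehog ligands and keeps them from the receptor, was listed at 0 in dog. It had 213 reads in armadillo (16.1 CPM, 95% interval 14.02 to 18.4) and 60 in platypus (26.7 CPM, 95% interval 20.4 to 34.4). With dog set to 3 reads, HHIP was 73.2-fold lower in dog than in armadillo (lower 95% limit 59.0). On the same setting it was 121-fold lower in dog than in platypus (lower 95% limit 95.8). Armadillo lay 1.66-fold (95% interval 1.22 to 2.22) below platypus. Few other genes at these levels were at 0 in dog. Of 2549 other genes within 2-fold of the armadillo level of HHIP, 39 (1.53%) were listed at 0 in dog, and of 1697 genes within 2-fold of its platypus level, 33 (1.94%) were.

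Of the commonly induced genes, PTCH1 was thus higher in dog than in armadillo by CPM, while GLI1 and HHIP were lower. From armadillo to platypus PTCH1 fell and HHIP rose. In dog PTCH1 stood at 199 CPM while GLI1 had 15 reads and HHIP none. In armadillo all 3 were detected, at 17.2, 4.31 and 16.1 CPM. In platypus HHIP had 60 reads while PTCH1 was listed at 0 and GLI1 was not listed.

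Across all matched genes, a gene was called where the ratio of (CPM + 1) was 4-fold or more and the higher library reached 5 CPM. Between dog and armadillo 6 members were compared. PTCH1 was called higher in dog, beside 12.6% of 8854 matched genes called higher there, and GLI2, GLI3 and HHIP were called lower in dog, beside 13.2% of matched genes. The PTCH1 ratio exceeded that of 96.4% of matched genes, whereas those of GLI2, GLI3 and HHIP exceeded 8.63%, 11.2% and 3.75%. SMO and GLI1 were not called.

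Between dog and platypus 6 members were compared. PTCH1 was called higher in dog, against a background of 32% of 9026 matched genes, and SMO and HHIP were called lower in dog, against a background of 9.93%. The ratio of PTCH1 exceeded that of 98.9% of matched genes, that of SMO 7.89% and that of HHIP 1.71%. GLI3 passed the fold but not the minimum of 5 CPM. Between armadillo and platypus 5 members were compared. PTCH1, GLI2 and GLI3 were called higher in armadillo, beside 36.1% of 7296 matched genes, and 0 members were called lower, beside 11% of matched genes. Their ratios exceeded 83.5%, 65.4% and 87.7% of matched genes, so that GLI2 did not stand far from the middle of that distribution. Genes with no reads in armadillo are not listed there and could not enter a comparison with it, whereas genes at 0 in dog or platypus could. The same platypus library enters both comparisons with the eutherians, and the same dog or armadillo library enters 2 comparisons each.

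**Figure D2:**
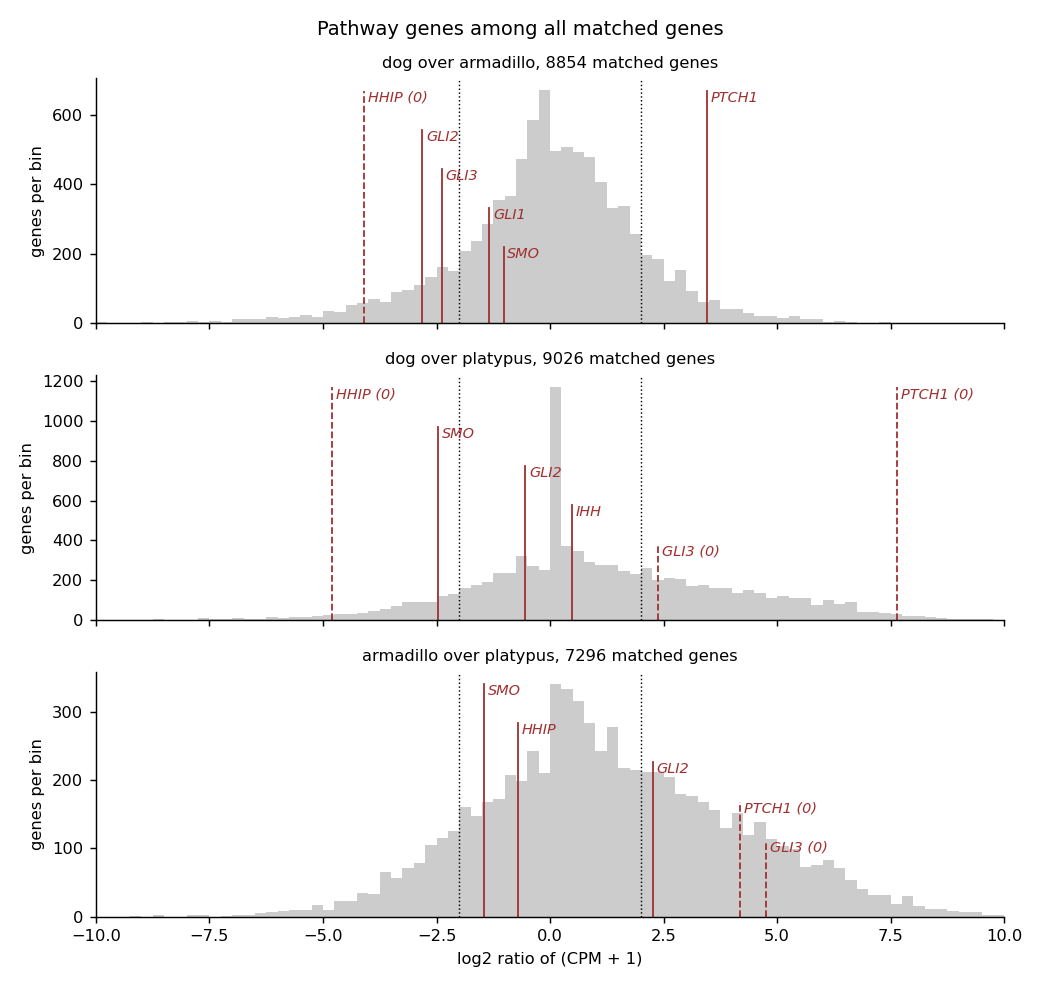
Histograms of the log2 ratio of (CPM + 1) over all matched genes for dog over armadillo, dog over platypus and armadillo over platypus, with the pathway genes marked as red lines and the 4-fold limits as dotted lines. Dashed lines with (0) are genes listed at 0 in 1 of the libraries. PTCH1 lies to the right in the comparisons with dog on top, beyond 96.4% and 98.9% of matched genes, and HHIP to the left.

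Scaling changed the size of these ratios. With median-of-ratios scaling every log2 ratio of levels without the added 1 was lower by 0.32 for dog over armadillo, 0.59 for dog over platypus and 0.27 for armadillo over platypus. The median log2 ratio of (CPM + 1) over all matched genes moved less, to -0.20, 0.25 and 0.89, against 0.00, 0.61 and 1.06 by CPM. Relative to this shift, PTCH1 was 9.25-fold higher in dog than in armadillo, GLI2 12.3-fold, GLI3 7.82-fold, GLI1 4.90-fold and SMO 2.57-fold lower. SMO was then 8.51-fold lower in dog than in platypus and 3.31-fold lower in armadillo than in platypus, and HHIP 1.998-fold lower in armadillo than in platypus. Between dog and platypus, with a gene at 0 set to 3 reads, PTCH1 was then 98.7-fold higher and HHIP 183-fold lower in dog.

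Ratios between members within a library need no scaling, but each ratio per read of SMO also holds the differences of SMO between the libraries. For each read of SMO there were 5.99 reads of PTCH1 in dog, against 0.251 in armadillo, and these values differed 23.8-fold (95% interval 19.9 to 28.5). Per read of SMO, GLI2 had 0.0642 reads in dog, 0.307 reads in armadillo and 0.0190 reads in platypus. The armadillo value was 16.1-fold (95% interval 7.97 to 38.1) above that of platypus, and the dog value 4.78-fold (95% interval 3.19 to 7.39) below that of armadillo. The dog value of GLI2 was 3.38-fold (95% interval 1.48 to 8.64) above that of platypus, the reverse of the order of its CPM. For GLI3 the dog value was 3.04-fold (95% interval 2.23 to 4.19) below that of armadillo, and for GLI1 1.90-fold (95% interval 1.05 to 3.66). HHIP per read of SMO was 1.66-fold (95% interval 1.21 to 2.29) higher in armadillo than in platypus, and its CPM had the opposite order.

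The stromal, smooth muscle and endothelial markers moved in the same direction as the GLI genes and HHIP between dog and armadillo. The summed stromal markers were 4.31-fold lower in dog than in armadillo, the smooth muscle markers 92.5-fold and the 2 shared endothelial markers, VWF and ESAM, 20.7-fold. Within the stromal sum, COL1A1 went the other way, at 2668 CPM in dog and 1895 CPM in armadillo. Of 4 compared leukocyte markers 3 were called lower in dog, beside 13.2% of all 8854 matched genes. CSF1R was among these markers, at 8.81 CPM in dog and 113 CPM in armadillo. The epithelial markers, summed in the same way, were 4.33-fold higher in dog. GLI2 and GLI3 were lower in dog by 9.85-fold and 6.26-fold, GLI1 by 3.92-fold and SMO by 2.06-fold. Between armadillo and platypus, where PTCH1, GLI2 and GLI3 were higher in armadillo, the summed stromal markers were 2.07-fold, the smooth muscle markers 11.5-fold and the epithelial markers 17.6-fold higher in armadillo. Single markers went the other way. DCN stood at 1668 CPM in armadillo and 5099 CPM in platypus, LUM at 333 CPM in armadillo and 1250 CPM in platypus, and the smooth muscle gene ACTA2, which is not in the sum, at 161 CPM in armadillo and 11301 CPM in platypus. In the epithelial sum ESRP1, at 7.19 CPM in armadillo and 23.2 CPM in platypus, and GRHL2, at 6.05 and 8.02 CPM, also went the other way. The part of these marker differences in the pathway results was not tested.

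Levels of different genes can be compared in dog alone, whose table holds a relative abundance that is scaled by gene length. Reads divided by this value gave whole gene lengths, up to 1 constant chosen for that purpose and within 0.1 bases, for 100% of 5260 genes with more than 500 reads. On the authors' deposited scale PTCH1 stood at 28.1 and SMO at 10.03, so that PTCH1 was 2.80-fold above SMO per length. GLI3 stood at 0.663, IHH at 0.599, GLI2 at 0.289 and GLI1 at 0.203. PTCH1 lay above 81.9% of listed dog genes and SMO above 64.5%. GLI3, IHH, GLI2 and GLI1 lay above 39.4%, 38.9%, 34.6% and 32.8% of them. With 14 to 57 reads, the last 4 are not firmly ordered among themselves.

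**Figure D3:**
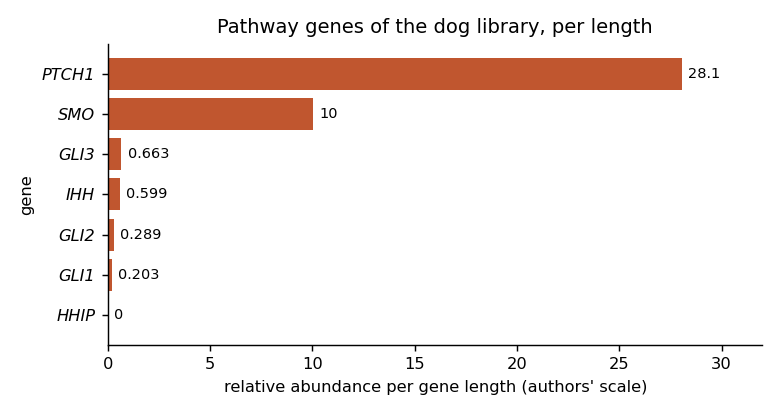
Relative abundance per gene length of the 7 pathway genes in the dog library, on the scale the authors deposited, whose unit the header does not state. PTCH1 (28.1) and SMO (10.03) stand above the other members, which lie at 0.663 or lower, and HHIP is at 0.

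The other ligand genes and the genes of ligand processing came from lists of known pathway genes. SHH was under its symbol in none of the 3 tables. DHH had 8 reads in dog (0.587 CPM), 102 in armadillo (7.72 CPM) and was listed at 0 in platypus. It was 13.1-fold (95% interval 6.42 to 31.3) lower in dog than in armadillo. With platypus set to 3 reads, it was 5.77-fold higher in armadillo than in platypus (lower 95% limit 4.61). Of the listed hedgehog ligand genes, DHH in armadillo alone exceeded 2 CPM. HHAT, which attaches palmitate to hedgehog ligands, stood at 41.3 CPM in dog and 3.71 CPM in armadillo and was listed at 0 in platypus, and was 11.1-fold (95% interval 8.32 to 15.2) higher in dog than in armadillo. SCUBE2, which helps to release the ligand, was at 55.1 CPM in dog and 387 CPM in armadillo and listed at 0 in platypus. It was 7.02-fold (95% interval 6.50 to 7.58) lower in dog than in armadillo. SCUBE1, a gene of the same family, was listed at 0 in dog and had 13 reads (5.79 CPM) in platypus. DISP1, which exports the ligand, was at 35.8 CPM in dog and 51.2 CPM in armadillo. Of this list of 8 genes, 6 were compared between dog and armadillo with 1 called in each direction, 5 between dog and platypus with 2 called higher and 1 lower in dog, and 4 between armadillo and platypus with 1 called higher in armadillo. Over all matched genes the shares called higher and lower were 12.6% and 13.2% for dog over armadillo, 32% and 9.93% for dog over platypus, and 36.1% and 11% for armadillo over platypus. The median log2 ratios were 0.36, 1.89 and 1.46 (0.84 with genes at 0 set to 3 reads), beside 0.00, 0.61 and 1.06 over all matched genes.

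The ligand-binding proteins at the cell surface followed several orders. CDON, a co-receptor, stood at 5.94 CPM in dog, 56.2 CPM in armadillo and 152 CPM in platypus. It was 9.46-fold (95% interval 7.51 to 12.0) lower in dog than in armadillo and 25.6-fold (95% interval 20.01 to 32.99) lower in dog than in platypus. CDON therefore had the same order as SMO. BOC, a relative of CDON, stood at 66.4 CPM in armadillo and 3.12 CPM (7 reads) in platypus, a difference of 21.3-fold (95% interval 10.3 to 53.1). LRP2, a large endocytic receptor that also binds hedgehog ligands, was at 13.3 CPM in dog and 1.34 CPM (3 reads) in platypus, a ratio of 9.93 (95% interval 3.35 to 48.6). GAS1, another co-receptor, had 6 reads in dog.

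Between SMO and the GLI factors, 3 genes were called between dog and armadillo, beside 12.6% of all matched genes called higher and 13.2% called lower in dog. Of 21 compared genes of a list of 25, ULK3, a kinase acting on GLI proteins, was called higher in dog (38.8 against 7.41 CPM). EVC (9.47 against 41.0 CPM) and EVC2 (5.14 against 64.7 CPM), which relay the signal of SMO at the base of the cilium, were called lower in dog than in armadillo. EVC2 was 12.6-fold (95% interval 9.86 to 16.3) lower in dog, and EVC 4.33-fold (95% interval 3.57 to 5.29). The call of ULK3 was lost with median-of-ratios scaling. SUFU, which holds GLI proteins in the cytoplasm, stood at 13.9 CPM in dog, 41.1 CPM in armadillo and 4.90 CPM in platypus. It was named after its values were seen and was called higher in armadillo than in platypus, at 8.38-fold (95% interval 4.65 to 16.9). The median log2 ratio of the list was -0.39 for dog over armadillo, beside 0.00 over all matched genes.

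Against platypus, 8 of 20 compared genes of this list were called higher in dog and 2 lower, and 9 of 18 were called higher in armadillo and 3 lower. Over all matched genes 32% were called higher and 9.93% lower in dog, and 36.1% higher and 11% lower in armadillo, so that the counts for dog were near those shares. STK36, a kinase related to fly Fused, stood at 50.8 CPM in dog and 74.97 CPM in armadillo and was listed at 0 in platypus. KIF7, a ciliary kinesin that regulates GLI proteins, stood at 20.6 CPM in dog, 22.9 CPM in armadillo and 0.446 CPM (1 read) in platypus. TULP3, which carries receptors into the cilium, was at 22.3 CPM, 38.5 CPM and 1.34 CPM (3 reads) in the same order of libraries. EVC and ULK3 were also listed at 0 in platypus. The genes called lower in the eutherians were chosen for naming after their values were seen. They were PRKACB, a catalytic subunit of protein kinase A, which prepares GLI proteins for cleavage (18.3 CPM in dog, 21.8 CPM in armadillo, 113 CPM in platypus), the ubiquitin ligase scaffold gene CUL3 (186, 171 and 809 CPM) and, for armadillo, CUL1 (104 CPM, against 498 CPM in platypus). The median log2 ratio was 1.62 for dog over platypus and 2.09 for armadillo over platypus, beside 0.61 and 1.06 over all matched genes. With genes at 0 set to 3 reads they were 1.62 and 1.70, and without genes at 0 0.95 over 17 genes and 1.35 over 15 genes. With median-of-ratios scaling 6 were called higher and 3 lower in dog than in platypus, beside 2458 higher and 1217 lower of 9026 matched genes.

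The signal of SMO depends in mammals on the primary cilium. Of 31 listed genes 26 were compared, with 1 called higher and 0 called lower in dog than in armadillo, beside 12.6% and 13.2% of all matched genes, and a median log2 ratio of 0.20. The called gene was IFT52, a subunit of ciliary transport, at 30.1 CPM in dog and 6.35 CPM in armadillo, named after its values were seen. With median-of-ratios scaling 0 were called higher and 2, KIF3A and TCTN1, lower, and the median was -0.11. Over all matched genes that scaling gave 864 higher and 1345 lower of 8854, with a median of -0.20. Against platypus, 7 of 23 were called higher and 4 lower in dog, and 8 of 22 higher and 4 lower in armadillo, with medians of 0.46 and 0.86. These values were near those of all matched genes, of which 32% were called higher and 9.93% lower in dog and 36.1% higher and 11% lower in armadillo, with medians of 0.61 and 1.06. With median-of-ratios scaling 5 were called in each direction and the median was -0.11 for dog over platypus, and 8 were called higher and 5 lower in armadillo. Over all matched genes that scaling gave 2458 higher and 1217 lower of 9026 in dog, with a median of 0.25, and 2484 higher and 963 lower of 7296 in armadillo. IFT81 and IFT88, which also serve in motile cilia, were among those lower in each eutherian and were named after their values were seen. IFT88, for example, stood at 12.2 CPM in dog, 4.99 CPM in armadillo and 193 CPM in platypus. The motile cilia markers FOXJ1, with 6 reads in dog and 1118 in platypus, and SPAG6, with 0 in dog, 23 in armadillo and 257 in platypus, were also higher in platypus than in the other libraries that list them. The markers DNAH5, DNAI1 and PIFO were listed at 0 in platypus. The part of motile cilia in these values was not tested.

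**Figure D4:**
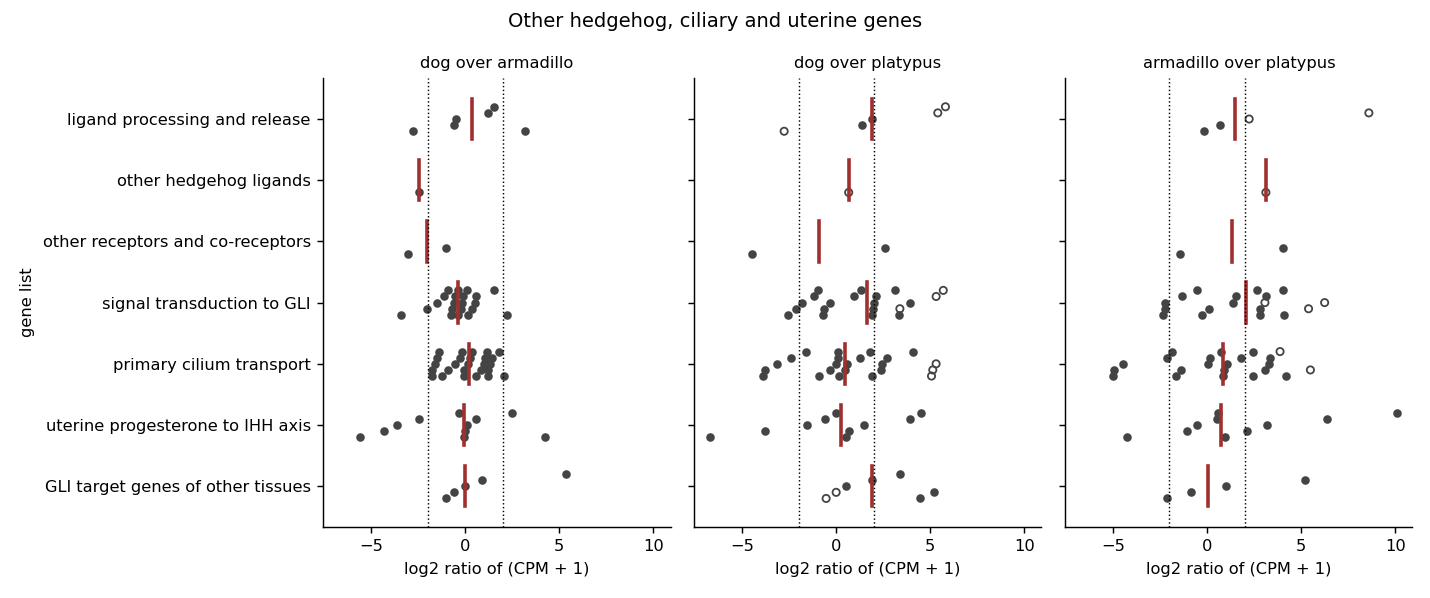
Log2 ratios of (CPM + 1) of the genes of 7 lists for dog over armadillo, dog over platypus and armadillo over platypus. Each point is a gene, open points are listed at 0 in at least 1 of the pair, red bars are list medians and dotted lines the 4-fold limits. Between dog and armadillo most points of the signal transduction and cilium lists lie within the limits, with 3 of 21 and 1 of 26 called.

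Genes placed above or below IHH in mouse uterus were taken from a list of 19. NR2F2, the stromal nuclear receptor induced by IHH in mouse, was not called in any pair, at 178 CPM in dog, 185 CPM in armadillo and 272 CPM in platypus. Its dog to armadillo ratio of 0.962 had a 95% interval of 0.909 to 1.02, so that these libraries did not differ beyond counting error, though the ratio was 0.770 with median-of-ratios scaling. BMP2, a stromal signal of decidualisation in mouse, stood at 2.94 CPM in dog, 76.3 CPM in armadillo and 53.5 CPM in platypus. It was 26.0-fold (95% interval 18.9 to 36.6) lower in dog than in armadillo and 18.2-fold (95% interval 12.6 to 26.8) lower in dog than in platypus. FST, which binds activins, stood at 9.69 CPM in dog, 133 CPM in armadillo and 29.9 CPM in platypus.

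VCAN, a matrix proteoglycan, stood at 31.6 CPM in dog, 1560 CPM in armadillo and 0.446 CPM (1 read) in platypus, and was 49.3-fold (95% interval 44.8 to 54.4) lower in dog than in armadillo. FKBP4, a chaperone partner of the progesterone receptor, stood at 1233.5 CPM in dog, 63.3 CPM in armadillo and 1225 CPM in platypus. It was 19.5-fold (95% interval 18.2 to 20.9) higher in dog than in armadillo and 19.4-fold (95% interval 17.9 to 20.9) lower in armadillo than in platypus. NCOA1, a receptor coactivator, stood at 20.6 CPM in dog, 119 CPM in armadillo and 0.446 CPM (1 read) in platypus. HAND2, a stromal transcription factor, was 6.79-fold (95% interval 5.01 to 9.39) higher in dog than in armadillo, at 24.7 against 3.63 CPM. The oestrogen receptor gene ESR1 was 116-fold (95% interval 96.2 to 142) lower in dog than in platypus, at 8.22 against 956 CPM. EGFR, the receptor of epidermal growth factor, stood at 52.9 CPM in armadillo and 4.90 CPM in platypus. The progesterone receptor gene PGR had 653 reads (291 CPM) in platypus, and in dog 223 reads (16.4 CPM) under its protein entry name. Of this list, 11 genes were compared between dog and armadillo with 2 called higher and 4 lower in dog, 10 between dog and platypus with 2 called in each direction, and 10 between armadillo and platypus with 4 called higher and 1 lower in armadillo. The median log2 ratios were -0.06, 0.27 and 0.74, beside 0.00, 0.61 and 1.06 over all matched genes. The shares of all matched genes called higher and lower were 12.6% and 13.2%, 32% and 9.93%, and 36.1% and 11% in the same order of pairs. With PGR of dog counted under its protein entry name, 11 were compared between dog and platypus, with 2 higher and 3 lower in dog and a median of 0.01. With median-of-ratios scaling 3 were called lower in dog than in platypus, with a median of -0.25, and the call of FST, higher in armadillo than in platypus, was lost. Over all matched genes, 1217 of 9026 were then called lower in dog than in platypus, with a median of 0.25.

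Genes described as GLI targets in other tissues were mostly missing under their symbols in 1 or more tables, with 5, 7 and 4 of 20 compared in the 3 pairs. FOXM1, a transcription factor of dividing cells, stood at 70.9 CPM in dog, 0.757 CPM (10 reads) in armadillo and 2.23 CPM (5 reads) in platypus. It was 93.7-fold (95% interval 50.7 to 196) higher in dog than in armadillo. RAB34, a ciliary small GTPase, was at 51.7 CPM in dog and 52.3 CPM in armadillo and had 1 read in platypus. MYCN was at 19.2 CPM in dog and 0.891 CPM (2 reads) in platypus, and SNAI2 at 49.3 CPM in armadillo and 221 CPM in platypus. These 2 genes encode transcription factors of growth and of mesenchymal cells. Called genes of this list numbered 1 higher and 0 lower for dog over armadillo, 3 and 0 for dog over platypus, and 1 and 1 for armadillo over platypus, with median log2 ratios of -0.01, 1.93 and 0.07. Over all matched genes the shares called higher and lower were 12.6% and 13.2%, 32% and 9.93%, and 36.1% and 11%. The medians over all matched genes were 0.00, 0.61 and 1.06 in the same order of pairs. With the cell cycle gene CCND1 of dog counted under its protein entry name, at 6.53 CPM in dog and 207 CPM in platypus, 3 were called higher and 1 lower in dog than in platypus, and the median was 1.24. The median for armadillo over platypus turned to -0.15 with median-of-ratios scaling, beside 0.89 over all matched genes.

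The genes whose pattern over the 3 libraries was nearest to that of a member were sought among 5877 other genes found in all 3 tables and at 2 CPM or more in at least 1. Likeness was the distance between log2(CPM + 1) values centred on their mean over the 3 libraries. For PTCH1 the nearest were MGAT4A, PRDX2 and ETFDH, at distances of 0.16 to 0.26, all listed at 0 in platypus, and 14 genes lay within 0.5. For SMO they were ANK3, SLC38A4 and ATRX, for GLI2 BTBD1, RASGRP4 and PRKAR2B, and for GLI3 ARHGEF6, ZC3HC1 and SLC25A29. For HHIP they were FBLN2, PRPS2 and SGCE, at 0.06 to 0.17, with 11 genes within 0.5. FBLN2 stood at 2.20 CPM in dog, 52.4 CPM in armadillo and 82.9 CPM in platypus. Some of the named genes rest on few reads. SLC38A4 and PRPS2 stood at 0.0734 CPM in dog, which is 1 read. RASGRP4 stood at 0.954 CPM in dog and 1.78 CPM in platypus, and PRKAR2B at 0.661 and 1.34 CPM. With 3 libraries, 82 genes lay within 0.5 of GLI2, 90 of SMO and 50 of GLI3.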

How the data were processed

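The dog values are expected counts per gene that the authors deposited, and they equal mapped bases divided by 34. Of these, 516 were not whole and were rounded. The deposited dog scores, mapped bases and a relative abundance, served only as a check and for comparison by length. The armadillo and platypus tables hold whole-number counts per gene, per the file headers. Bowtie is named in the submitters' processing notes, with its version, the genome builds and the annotation not given in the sources used here. Lines of totals were left out. Genes were matched by upper-case symbols that occur once in a table. Levels have exact Poisson and ratios exact conditional 95% intervals (SciPy 1.17.1), which cover counting error only, since the labels name no molecular identifiers and PCR copies may be counted. Folds against a gene at 0 use 3 reads in that library, and their lower 95% limits come from the exact intervals. A gene was called at a 4-fold ratio of (CPM + 1) with 5 CPM or more in the higher library, and these steps were tested on simulated data. Scalings, pseudocounts, minimums and folds were varied.

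Named were the members, the other ligands and receptors, up to 4 called genes with the largest ratios per list and pair, and 3 genes of nearest pattern per member, and exceptions are stated. Some genes of these lists are not reported here. The members and lists were chosen with earlier results of these data known. DNA and protein sequences were not used here.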

Additional observations from a re-analysis of the deposited data

How the results depend on the processing

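The directions of all called members held with each of the 3 other scalings, pseudocounts of 0.5 and 2 CPM, minimums of 2 CPM and none, and a fold of 2. Between dog and armadillo 4 members were called with each of these, and SMO was added at a fold of 2. Between dog and platypus GLI3 was added with totals over matched genes or a lower minimum, and between armadillo and platypus SMO was added at a fold of 2. Leaving out genes at 0 lowered the called members from 4 to 3 in dog over armadillo, where HHIP was lost, from 3 to 1 in dog over platypus, SMO, and from 3 to 1 in armadillo over platypus, GLI2, because PTCH1, GLI3 and HHIP rest on a zero there. Over all matched genes it lowered the count higher in dog than in platypus to 1706 and higher in armadillo than in platypus to 1485. A fold of 2 raised the counts to 2361 higher and 1980 lower in dog than in armadillo, 1484 lower in dog than in platypus and 1395 lower in armadillo than in platypus. List counts with median-of-ratios scaling were added after the values were seen. No paired analysis was possible because each species had 1 library, and for the same reason no replicate could be left out. Depth limits platypus most: 1 read there equals 0.446 CPM, against 0.0734 in dog.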
